A study of Mus musculus with 6 samples.

Results

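The 40 genes described here encode the proteins of the basement membrane (10 laminin chains, 6 collagen IV chains, 2 nidogens, 3 proteoglycans and fibronectin) and the receptors that hold cells to it (11 integrin alpha chains, 6 integrin beta chains and dystroglycan). They were chosen by gene symbol, with earlier results of these data known, and all 40 were found among the 58116 rows of the count table. Poly(A) RNA was sequenced from primordia of the salivary gland taken from wild type embryos (mouse, day 13.5), in 3 control libraries given 0 ng/ml and 3 libraries given 300 ng/ml of BMP-2, a bone morphogenetic protein that cells secrete. The series was made to ask how this ligand acts as the gland forms. The labels give neither the length of the treatment nor whether libraries came from separate litters or cultures, so p-values measure only how these libraries vary, part of which may be technical. Of the treated columns, 2 matched a numbered sample. The remaining column matched no sample label exactly, was placed in the BMP-2 group by the first letter of its name, and is termed the unnumbered BMP-2 library here.

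A basement membrane is a thin sheet of matrix beneath epithelia and around muscle, fat, nerve and vessels. Laminins, each a trimer of an alpha, a beta and a gamma chain, and collagen IV, a trimer of alpha chains, form separate networks in it, which nidogens and the proteoglycan perlecan link. Cells bind it through integrins, each made of 1 alpha and 1 beta chain, and through dystroglycan. In the branching salivary gland the sheet surrounds the epithelial buds, fibronectin gathers in the clefts that split them, and laminin and integrin signals are known to take part in bud growth.

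Libraries held 19724383 to 32473558 counts. Gland markers were present in every library: 11 epithelial markers summed to 4657 to 5493 CPM (counts relative to the library size, which was scaled by its TMM factor) without and 3937 to 5777 CPM with BMP-2, and 7 mesenchymal markers to 6759 to 7996 and 5487 to 8808 CPM. The early salivary secretory gene Bpifa2, chosen as a check after its values were seen, spanned 1522 to 3376 CPM in controls and 519 to 1073 CPM in treated libraries. Bpifa2 did not pass the test described below (adjusted p = 0.141, edgeR). Skeletal muscle markers, 13 genes, summed to 6.26 to 106 CPM in the controls and to 202 to 871 CPM in the treated libraries, so the groups did not overlap. These are bulk libraries, in which fewer cells of a type and less RNA per cell cannot be told apart.

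None of the 40 genes passed the test for a difference between 0 and 300 ng/ml (0 of 40; quasi-likelihood test in edgeR, p adjusted over 17006 genes by Benjamini-Hochberg and read at 0.05; lowest value 0.146). Over all genes 0.911% passed, 0.811% as higher and 17 genes (0.1%) as lower. All 40 genes cleared the expression filter and were detected in all 6 libraries. The median log2 change over the 40 was 0.015, beside -0.0098 over all genes tested, and 22 values were positive and 18 negative. No member reached a 2-fold estimate, beside 5.58% of all genes, a share at which few of 40 genes would. The median standard error was also smaller for the members (0.144) than over all genes tested (0.178). For 35 of the 40 the 95% interval of the change lay within 2-fold in both directions, and for 19 within 1.5-fold. The 5 whose interval reached 2-fold were Lama1, Lamc3, Col4a3, Nid2 and Itga4.

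An unadjusted p below 0.05 was found for 7 members, 17.5% of the 40, beside 10.1% of all genes. Of these, 4 were lower with BMP-2 (10% of members, 3.65% of all genes): Nid1, Nid2, Col18a1 and Lama5. The other 3 were higher (7.5% of members, 6.47% of all genes): Itga4, Itga9 and Col4a6. In CPM, treated libraries all lay below the controls for 5 members, Lamc1, Nid1, Nid2, Col18a1 and Itgb4 (12.5%, beside 6.73% of all genes). They all lay above the controls for Itga4 and Itga8 (5.0%, beside 8.76%). When scaled per length instead (TPM, defined below), the groups overlapped for Lamc1 and Itgb4. There BMP-2 replicate 2 reached 79.6 and 112.1 TPM, above the lowest controls at 78.8 and 110.3 TPM. The share over all genes was not computed on that scale. Among other tools DESeq2 called Nid2 and Col18a1 lower, 2 of 40, where it called 0.941% of all genes lower, and limma-voom called 0 members and 0.459% of all genes.

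**Figure D1:**
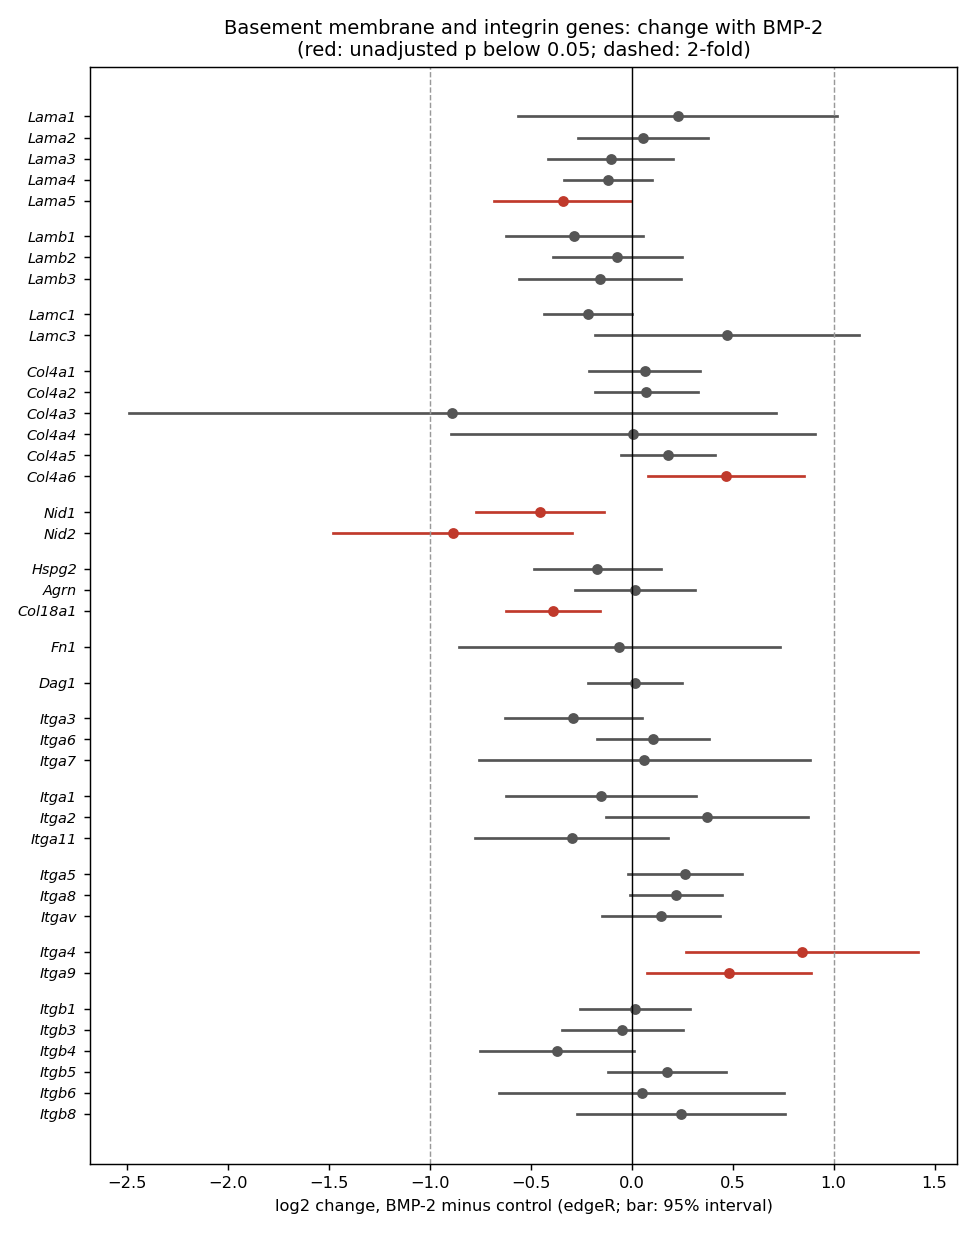
Log2 change of each of the 40 genes, BMP-2 minus control, with its 95% interval from the edgeR fit, grouped by kind of protein; red marks an unadjusted p below 0.05 and dashed lines mark 2-fold. The 7 red intervals leave out 0, and 35 of the 40 intervals lie between the dashed lines.

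Levels of different genes can be compared per length, as TPM (counts per kilobase of the exon length in the table, scaled to the same sum in every library). In the controls 10 of the 40 genes were at 100 TPM or more and 8 under 5 TPM. Collagen IV chain Col4a1 stood highest with 503 ± 38.3 TPM, followed by the shared integrin beta chain Itgb1 with 453 ± 71.6 TPM (SD, n = 3). Dystroglycan (Dag1) with 267 ± 18.0, Col4a2 with 263 ± 10.9 and fibronectin (Fn1) with 237 ± 89.8 TPM came next, and these 3 did not differ beyond their spread. The kidney and lung collagen IV chains Col4a3 and Col4a4 and the laminin chain Lama1 were the lowest, at 0.494 ± 0.388, 0.688 ± 0.403 and 0.833 ± 0.137 TPM (SD, n = 3).

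**Figure D2:**
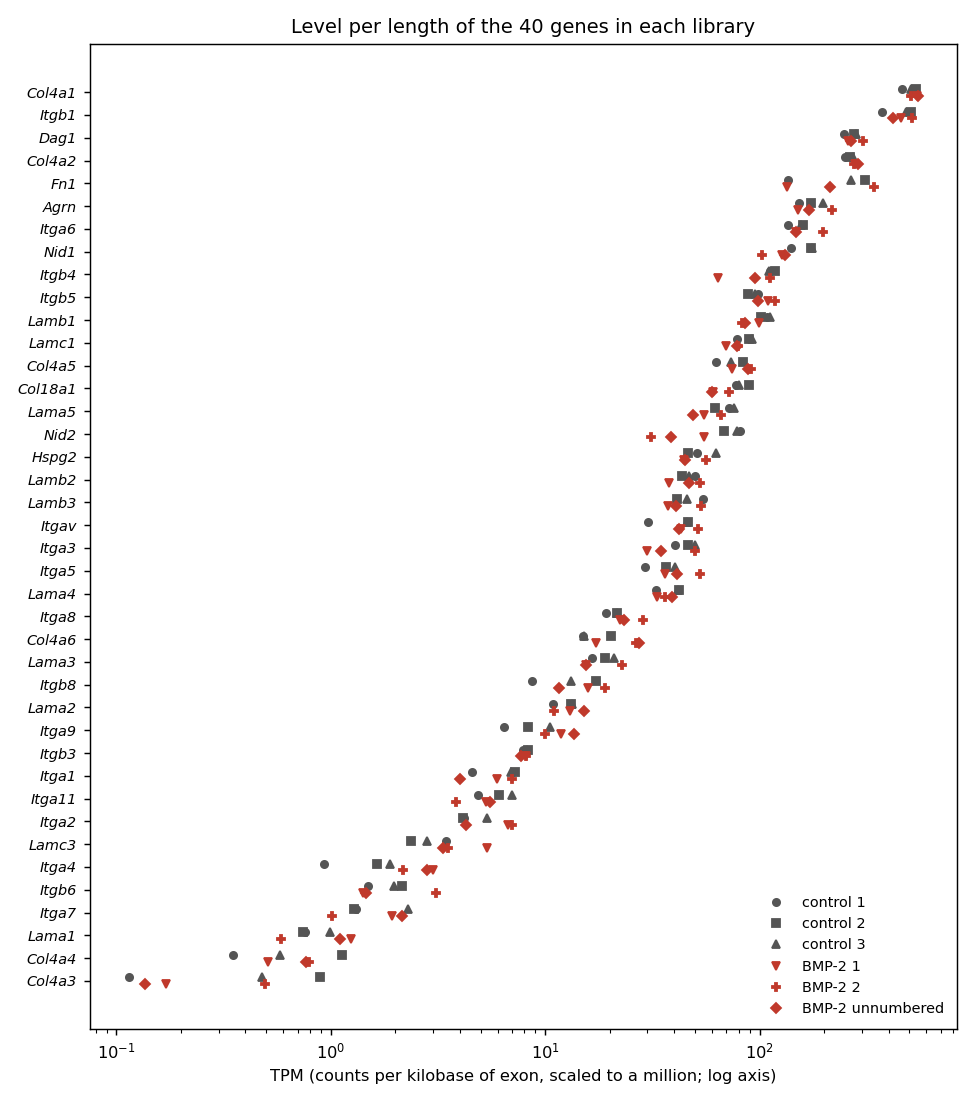
Level per length (TPM, log axis) of the 40 genes in each of the 6 libraries, ordered by mean; grey points are controls and red points BMP-2 libraries. Col4a1 and Itgb1 lead in every library, and Col4a3, Col4a4 and Lama1 lie at the bottom.

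Collagen IV forms the covalently crosslinked network of the sheet. Its alpha1 and alpha2 chains, the products of Col4a1 and Col4a2, make up the common trimer. The 2 genes lie head to head on chromosome 8 (GRCm39, Col4a1 from 11248423 to 11362826 on the minus strand and Col4a2 from 11362805 to 11499287 on the plus strand), and in the table their spans overlap by 22 bases at the 5′ ends. The start regions are shown because both genes are read from the same stretch. Each window runs from 250 bases before to 50 after the annotated start (RefSeq, build GRCm38.p6), and capitals mark the 78 bases that both windows hold, read on opposite strands.
Col4a1, chr8:11312777-11313076, minus strand: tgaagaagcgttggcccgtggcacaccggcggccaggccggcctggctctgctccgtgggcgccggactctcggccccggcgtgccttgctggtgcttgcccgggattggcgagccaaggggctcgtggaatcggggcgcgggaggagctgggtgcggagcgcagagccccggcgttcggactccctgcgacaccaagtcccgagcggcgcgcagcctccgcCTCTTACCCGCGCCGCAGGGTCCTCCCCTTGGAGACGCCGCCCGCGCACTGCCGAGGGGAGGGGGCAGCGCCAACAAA
Col4a2, chr8:11312555-11312854, plus strand: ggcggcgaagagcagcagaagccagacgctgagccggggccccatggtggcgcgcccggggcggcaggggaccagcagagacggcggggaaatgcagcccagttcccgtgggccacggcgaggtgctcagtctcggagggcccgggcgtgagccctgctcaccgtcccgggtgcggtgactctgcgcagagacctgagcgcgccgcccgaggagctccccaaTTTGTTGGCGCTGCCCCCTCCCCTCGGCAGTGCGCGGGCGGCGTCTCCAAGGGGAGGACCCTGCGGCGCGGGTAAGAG
The annotated starts are 21 bases apart, and 74.0% and 73.7% of the bases are G or C, beside a median of 52.7% over 32851 start windows. The GC box GGGCGG, counted on both strands, occurs 3 times in the joined stretch, 1 of them in the shared bases. The Col4a1 window holds 1 and the Col4a2 window 3, and 35.7% of all windows hold at least 1. The CCAAT box, counted in the same way, occurs 2 times in the joined stretch, 1 in each window, and 37.4% of all windows hold at least 1. Start windows were at hand for 28 of the 40 genes.

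Each of the pair differed little between libraries. Col4a1 was at 1349.7, 1334 and 1261 CPM in control replicates 1, 2 and 3 and at 1482, 1239.8 and 1401 CPM in the treated libraries (replicate 1, replicate 2, unnumbered), the order used for all values below. The groups overlapped, with a log2 change of 0.06 (95% interval -0.21 to 0.34). Col4a2 had a log2 change of 0.07 (-0.18 to 0.33). Per length there were 1.84, 2.03 and 1.88 Col4a1 transcripts for each Col4a2 transcript in the controls and 1.93, 1.86 and 1.91 in the treated libraries, means of 1.91 ± 0.0976 and 1.90 ± 0.0358 (n = 3 libraries a group, SD; two-sided exact permutation p = 0.9). This was 1 of 11 ratios between members that were computed, and the lowest adjusted p among them was 0.412 (Benjamini-Hochberg, exact permutation); 3 libraries against 3 cannot give a p under 0.1.

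Col4a5 and Col4a6, whose chains form a trimer found in the sheets around smooth muscle and under skin, are also head to head, on chromosome X with 1308 bases between them. Col4a6 was at 47.7, 55.1 and 41.2 CPM without and at 51.7, 70.7 and 76.6 CPM with BMP-2. BMP-2 replicate 1 lay within the control range and the other 2 above it. Col4a6 lies on chromosome X from 139948399 to 140257072 (GRCm39). Its log2 change was 0.47 (SE 0.169, unadjusted p = 0.0238, adjusted p = 0.346, edgeR). Col4a5 had a log2 change of 0.18 (adjusted p = 0.677), with overlapping groups. The ratio of Col4a5 to Col4a6 per length was 4.39 ± 0.368 without and 3.65 ± 0.576 with BMP-2 (n = 3 libraries a group, SD; two-sided exact permutation p = 0.3). Smooth muscle and pericyte markers, 9 genes, summed to 1298 to 1413 CPM in controls and were highest (1772 CPM) in BMP-2 replicate 2 and lowest (1191 CPM) in the unnumbered library, the 2 libraries with most Col4a6. Col4a3 and Col4a4, the chains of the adult glomerulus, were too low to compare: Col4a3 had as few as 9 counts in a library, and its interval ran from -2.49 to 0.71.

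The laminin chains differed far more in level from each other than between groups. Among alpha chains Lama5, the chain of laminin-511 and the main one of mature epithelial sheets, took 49.7 ± 4.54% of the transcripts per length without and 45.2 ± 3.95% with BMP-2. Lama4, typical of vessels and fat, took 27.5 ± 3.03 and 29.1 ± 3.17%, Lama3, the chain of laminin-332 at hemidesmosomes, 13.3 ± 0.859 and 14.2 ± 2.12%, and Lama2, the muscle and nerve chain, 8.85 ± 0.743 and 10.6 ± 2.36% (SD, n = 3 each). Lama1, the alpha chain of the laminin of early embryos, held 0.431 to 1.05% of alpha chain transcripts in a library. Lamb1 led the beta chains with 53.3 ± 2.17 and 50.1 ± 6.62%, and Lamc1 the pair of gamma chains with 96.8 ± 0.833 and 94.9 ± 1.73% (SD, n = 3 each). Thus the chains of the Lama5, Lamb1 and Lamc1 trimer were each the most abundant of their kind in all 6 libraries.

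**Figure D3:**
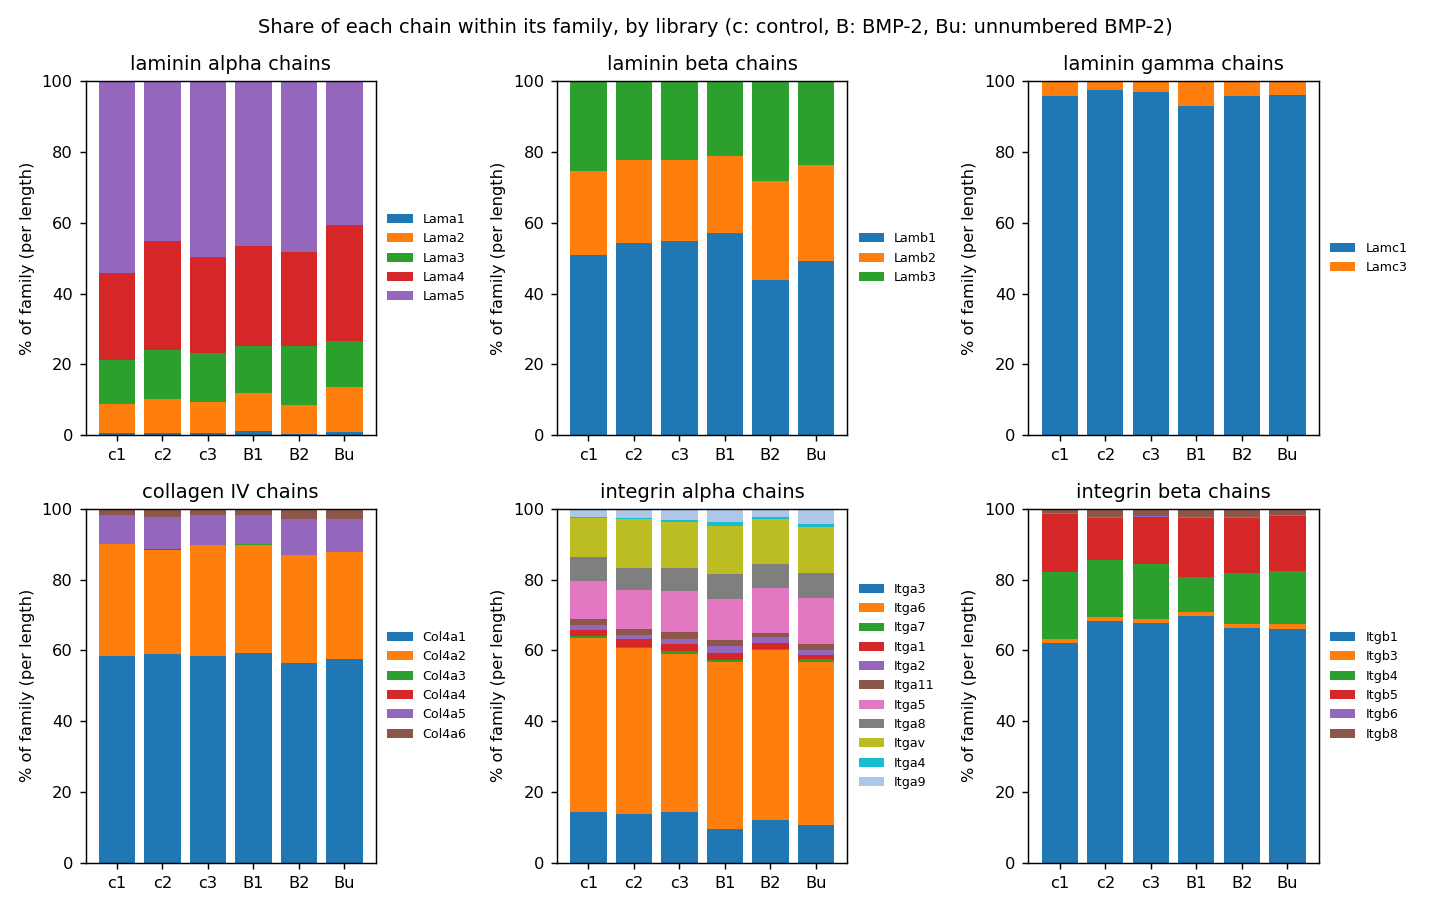
Share of each chain in the transcripts of its family, per length, in control libraries c1 to c3, BMP-2 libraries B1 and B2 and the unnumbered BMP-2 library Bu; bars are single libraries and add to 100%. Lama5, Lamb1, Lamc1, Col4a1, Itga6 and Itgb1 are the largest share of their family in all 6 bars.

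The most abundant chains had negative log2 changes that did not pass the test. Lama5 was at 334, 242 and 296 CPM without and at 239, 252 and 197 CPM with BMP-2. Control replicate 2 lay inside the treated range, so the groups overlapped. Lama5 lies on chromosome 2 from 179818166 to 179867652 (GRCm39). The log2 change was -0.34 (SE 0.148, unadjusted p = 0.0483, adjusted p = 0.487, edgeR). Lamc1, the gamma chain of most laminins and the one that nidogens bind, had values of 405, 390 and 402 CPM and of 337, 339 and 353 CPM. In CPM the replicates of a group were close and the groups did not overlap, with a log2 change of -0.22 (SE 0.0949, adjusted p = 0.498). In TPM the groups overlapped, at 78.8, 89.4 and 92.5 without and at 70.0, 79.6 and 78.8 with BMP-2. Lamb1, the usual beta chain, was at 482, 384 and 424 CPM and at 419, 308 and 333 CPM, overlapping in BMP-2 replicate 1, with a log2 change of -0.28 (adjusted p = 0.625).

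The other 7 laminin genes had log2 changes from -0.16 (Lamb3) to 0.47 (Lamc3), and the adjusted p was 0.721 or more in edgeR. Lamc3, a gamma chain outside the usual trimers, was low, at 8.89 ± 2.51 and 12.3 ± 4.18 CPM (SD, n = 3 each). Lama2 was at 70.6, 72.8 and 73.8 CPM without and at 79.6, 59.3 and 86.4 CPM with BMP-2. In each group its highest library was the one with most muscle marker transcripts, and among the treated libraries its lowest was the one with least. That treated library, BMP-2 replicate 2, had less Lama2 than any control but more muscle marker transcripts. The part of muscle in its level was not tested.

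Both nidogen genes were lower in every treated library than in every control, though neither passed the test. Nid2 was at 165, 118 and 135 CPM without and at 105, 52.3 and 68.6 CPM with BMP-2. Its log2 change of -0.89 (SE 0.253, 95% interval -1.48 to -0.29, unadjusted p = 0.00908, adjusted p = 0.208, edgeR) was the most negative apart from that of Col4a3, which was barely detected. DESeq2 called it (adjusted p = 0.0106), and its adjusted p ran from 0.0106 to 0.617 over 16 alternatives. Nid1 was at 382, 403 and 404 CPM and at 324, 232 and 312 CPM. The controls were close together, and the log2 change was -0.45 (SE 0.139, unadjusted p = 0.0108, adjusted p = 0.225, edgeR).

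Per length Nid1 was the more abundant of the pair in every library, with 0.391 to 0.579 Nid2 transcripts for each Nid1 transcript in controls and 0.295 to 0.435 in treated libraries. Set against their laminin partner Lamc1, Nid2 stood at 0.882 ± 0.138 without and 0.556 ± 0.207 with BMP-2 and Nid1 at 1.88 ± 0.0861 and 1.59 ± 0.268 (n = 3 libraries a group, SD; two-sided exact permutation p = 0.2 for both ratios). The groups overlapped in both ratios. Both genes were lowest in BMP-2 replicate 2, which also had the least mesenchymal marker RNA (5487 CPM). The unnumbered BMP-2 library had the most mesenchymal marker RNA (8808 CPM). The part of mesenchymal content in the nidogen values was not tested. Nid1 lies on chromosome 13 from 13612136 to 13686854 and Nid2 on chromosome 14 from 19801333 to 19861855 (GRCm39 coordinates of the gene spans). The end of Nid2 shares 437 bases with Rtraf on the other strand, and although the library kit keeps the strand, whether counting used it is not stated in the labels. Rtraf had mean levels of 117 and 120.5 CPM (log2 change 0.04, adjusted p = 0.986, edgeR).

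Among the proteoglycans only Col18a1, whose collagen XVIII carries heparan sulphate and releases endostatin, separated the groups. Its values were 217, 213 and 190 CPM without and 160, 167 and 146 CPM with BMP-2. The log2 change of -0.39 (SE 0.102, 95% interval -0.62 to -0.16, unadjusted p = 0.00467) had the lowest p of the 40 genes, and its adjusted p was 0.146 in edgeR. DESeq2 called it (adjusted p = 0.0205), with a range from 0.0205 to 0.441 over 16 alternatives. Col18a1 lies on chromosome 10 from 76888012 to 77002382 (GRCm39) and overlaps Slc19a1, a folate carrier gene on the other strand, which had 15.8 ± 0.702 and 12.8 ± 2.02 CPM (SD, n = 3 each).

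Agrn, which encodes agrin, the organiser of the neuromuscular junction and a wide part of epithelial sheets, was the most abundant proteoglycan gene. It was at 608, 587 and 662 CPM without and at 563, 721 and 593 CPM with BMP-2. Treated values lay both above and below the controls, and the log2 change was 0.02 (95% interval -0.28 to 0.31). Hspg2, the perlecan gene, had a log2 change of -0.17 (-0.48 to 0.14).

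Fn1 encodes fibronectin and had the widest spread among the 10 members at 100 TPM or more in the controls. It was at 630, 1212 and 1039 CPM without and at 581, 1318 and 861 CPM with BMP-2. The groups overlapped, and in each of them replicate 1 was lowest and replicate 2 highest. The coefficient of variation was 31.1% and 40.4%, and the log2 change was -0.06 with an interval from -0.86 to 0.73, which includes a difference of 1.5-fold either way. Dag1, the laminin and agrin receptor that links to the dystrophin complex, had little spread. It was at 617, 582 and 593 CPM and at 603, 628 and 584 CPM, with a log2 change of 0.02 and an interval from -0.21 to 0.25.

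Integrins that bind laminin have the alpha chains Itga3, Itga6 and Itga7. Itga6, which pairs with Itgb1 or, in hemidesmosomes, with Itgb4, was the leading alpha chain with 46.9 ± 2.13% of alpha chain transcripts per length without and 47.1 ± 1.01% with BMP-2 (SD over 3 libraries in both groups). Its levels were 587, 581 and 567 CPM and 601, 707 and 557 CPM, and BMP-2 replicate 2 stood apart above the rest (log2 change 0.10, adjusted p = 0.935). For the epithelial chain Itga3 the log2 change was -0.29 (adjusted p = 0.612, edgeR), and its treated values of 63.6, 93.6 and 68.5 CPM reached into the control range of 88.9 to 95.4 CPM.

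Itgb4, named here after its values were seen, was at 311, 279 and 259 CPM without and at 167, 259 and 232 CPM with BMP-2. The groups did not overlap in CPM, but the highest treated and the lowest control library lay at nearly the same level. In TPM the groups overlapped. The log2 change was -0.37 (SE 0.166, adjusted p = 0.512, edgeR). There were 1.32 ± 0.0985 Itga6 transcripts for each Itgb4 transcript per length without and 1.88 ± 0.402 with BMP-2 (SD over 3 libraries in both groups). All treated ratios (2.33, 1.76 and 1.55) lay above the controls (1.22, 1.34 and 1.41). The two-sided exact permutation p was 0.1, the smallest that this design allows, and 0.412 adjusted over the 11 ratios. The ratio of Itgb1 to Itgb4 also separated the groups, narrowly, with the same p-values. It was 3.32, 4.29 and 4.36 without and 7.13, 4.59 and 4.39 with BMP-2, so the separation was not particular to Itga6. The summed epithelial markers were 5493, 4657 and 5279 CPM and 4948, 5777 and 3937 CPM, and their part in the Itgb4 values was not tested.

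Itga7, the laminin receptor chain of muscle, was at 4.18, 3.45 and 6.17 CPM without and at 5.78, 2.67 and 5.98 CPM with BMP-2. It was highest in control replicate 3 and lowest in BMP-2 replicate 2, the control with most and the treated library with least muscle marker RNA. Across groups the order differed: BMP-2 replicate 2 had more muscle marker RNA (202 CPM) than any control (6.26 to 106 CPM) but less Itga7. The groups overlapped, with a log2 change of 0.06 (95% interval -0.76 to 0.88). The part of muscle in its level was not tested.

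**Figure D4:**
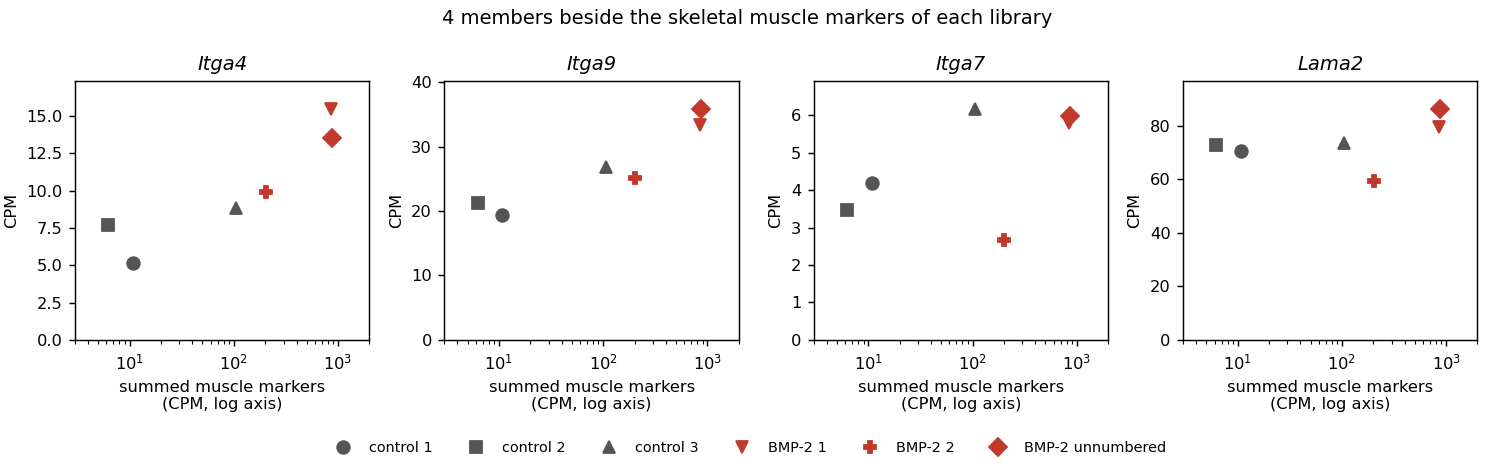
CPM of Itga4, Itga9, Itga7 and Lama2 in each library against the sum of 13 skeletal muscle markers (CPM, log axis); grey points are controls and red points BMP-2 libraries. Itga4 and Itga9 were highest in the 2 libraries with most muscle marker RNA, and the groups overlapped for Itga7 and Lama2.

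The largest positive log2 change among the 40 belonged to Itga4. Its product pairs with Itgb1 to bind fibronectin and VCAM-1 and is found on blood cells, neural crest and muscle precursors. Itga4 was at 5.13, 7.71 and 8.83 CPM without and at 15.5, 9.91 and 13.5 CPM with BMP-2. All treated libraries lay above all controls, from a low level. Itga4 lies on chromosome 2 from 79085770 to 79163467 (GRCm39). The log2 change was 0.84 (SE 0.251, 95% interval 0.27 to 1.42, unadjusted p = 0.00927, adjusted p = 0.209, edgeR), and it was called only in the fit without a low-count filter (adjusted p = 0.0267; range over 16 alternatives 0.0267 to 0.450), which called 1.37% of all genes higher.

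Itga9, whose product binds tenascin-C and osteopontin with Itgb1, was at 19.5, 21.2 and 26.9 CPM without and at 33.4, 25.1 and 35.9 CPM with BMP-2. BMP-2 replicate 2 lay below control replicate 3. Itga9 lies on chromosome 9 from 118435758 to 118730071 (GRCm39). The log2 change was 0.48 (SE 0.177, unadjusted p = 0.0249, adjusted p = 0.354, edgeR). Itga9 overlaps the antisense gene Gm2415, which was at 17.7 ± 2.49 and 17.9 ± 2.58 CPM (SD, n = 3 each), and its reads cannot be told apart from those if strand was not used.

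Markers of 2 cell types known to express Itga4 were read beside both genes. The muscle markers summed to 10.7, 6.26 and 106 CPM without and to 848, 202 and 871 CPM with BMP-2, where 1 of 13 passed the test and 11 had an unadjusted p below 0.05 (edgeR). Of the defining markers Myog, Myf5, Pax7, Actc1 and Ckm had no count in control replicate 1, and Myf5 none in control replicate 2. The 7 leukocyte markers summed to 62.6, 116 and 157 CPM and to 119, 208 and 163 CPM. Itga4 and Itga9 were highest in control replicate 3 among controls and lowest in BMP-2 replicate 2 among treated libraries, as the muscle sum was. Among the controls both genes had the order of the leukocyte sum and not that of the muscle sum, and among the treated libraries the leukocyte sum was highest in BMP-2 replicate 2, where both were lowest. The part of either cell type in these values was not tested.

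**Figure D5:**
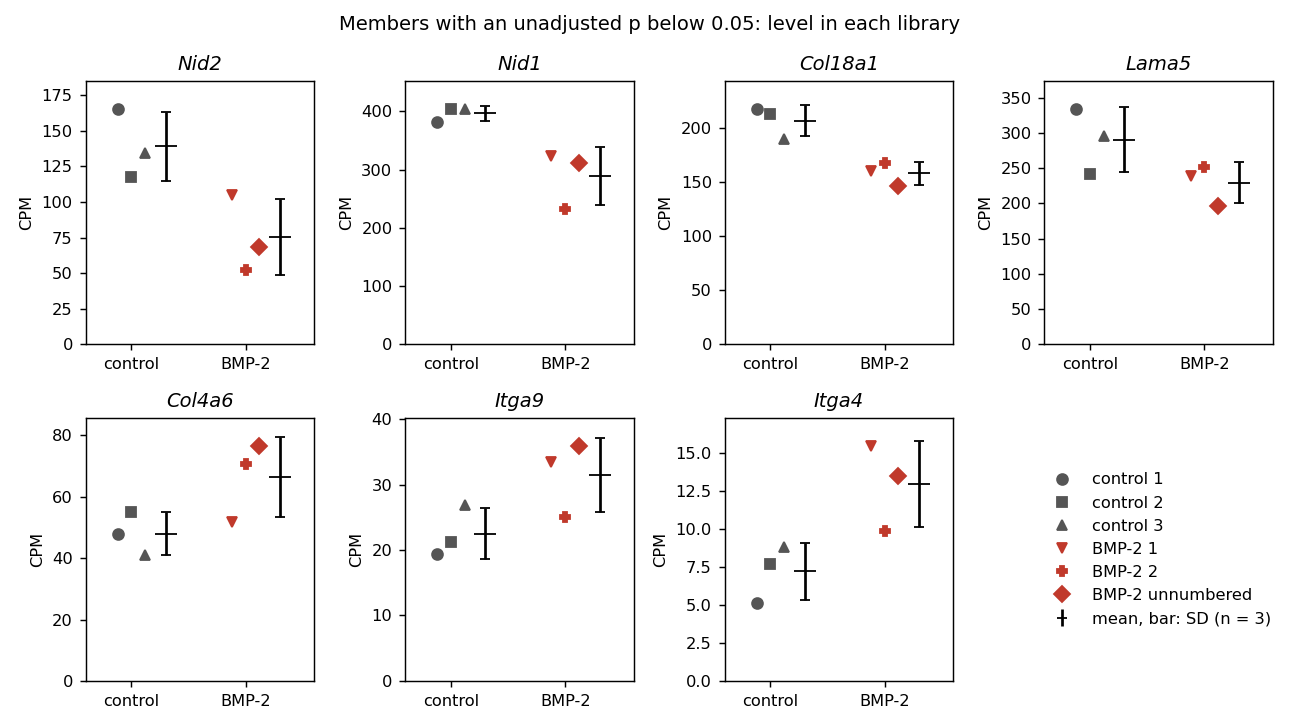
CPM in each library of the 7 genes with an unadjusted p below 0.05, from the most negative to the most positive log2 change; points are libraries, and bars show mean ± SD (n = 3 each). Nid2, Nid1, Col18a1 and Itga4 do not overlap between groups, and Lama5, Col4a6 and Itga9 do.

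The alpha chains Itgav, Itga8 and Itga5 bind the RGD motif of matrix proteins such as fibronectin, and none of the 3 passed the test. Itgav, the alpha chain with the most beta partners, was at 148, 193 and 191 CPM without and at 199, 210 and 180 CPM with BMP-2, overlapping, with a log2 change of 0.14 (adjusted p = 0.877, edgeR). Itga8, the nephronectin receptor chain, lay above the controls in all treated libraries, with 59.8 to 70.0 CPM against 53.9 to 57.0 CPM and a log2 change of 0.22 (SE 0.0997; adjusted p = 0.517). Itga5, the classical fibronectin receptor chain, had a log2 change of 0.27 (adjusted p = 0.531). The collagen-binding chains Itga1, Itga2 and Itga11 were low. Itga1 was at 36.7, 49.6 and 47.3 CPM without and at 45.1, 46.8 and 28.3 CPM with BMP-2, lowest in the unnumbered library, and Itga2 and Itga11 lay between 6.79 and 17.7 CPM. Their log2 changes were -0.15, 0.37 and -0.30 in that order (adjusted p of 0.703 or more, edgeR).

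Itgb1, the beta chain shared by most alpha chains, held 66.0 ± 3.53% of beta chain transcripts per length without and 67.4 ± 1.95% with BMP-2 (SD over 3 libraries in both groups). It was at 594, 688 and 650 CPM and at 683, 683 and 586 CPM, overlapping, with a log2 change of 0.01 (95% interval -0.26 to 0.29). Of the beta chains that pair with Itgav, Itgb5 held the most transcripts per length, 13.9 ± 2.24 and 15.8 ± 0.785% of all beta chains, followed by Itgb8 with 1.87 ± 0.442 and 2.24 ± 0.347% (SD, n = 3 each). Itgb3 and Itgb6 held less. Their log2 changes ran from -0.05 for Itgb3 to 0.25 for Itgb8, with an adjusted p of 0.820 or more in edgeR.

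The other genes around this system were also mostly not called. Of 17 other cell surface matrix receptors 1 passed the test as higher, where 0.811% of all genes did. It was Sgcd, which encodes delta-sarcoglycan, a subunit of the dystrophin complex that dystroglycan belongs to. Sgcd was at 15.4, 15.9 and 15.6 CPM without and at 30.6, 32.4 and 40.9 CPM with BMP-2. Its log2 change was 1.15 (SE 0.140, adjusted p = 0.0153, edgeR). The groups were far apart and the controls nearly equal. The muscle marker sums given above also differed between the groups, and their part in the Sgcd values was not tested. The call was lost without control replicate 1 or 2.

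No gene passed among 19 other basement membrane components, 19 assembly and crosslinking enzymes, 27 genes of the integrin-linked adhesion machinery, 6 hemidesmosome genes and 7 further integrin chains (edgeR, 0 called in each; 6, 1, 2, 0 and 2 at an unadjusted p below 0.05). Over all genes 10.1% had such a p. DESeq2 called 6 of the 19 other basement membrane components and 0 in the other 4 lists, beside 3.95% of all genes.

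These 6 genes are named after their values were seen, and for all of them the groups did not overlap. Frem1, a matrix protein that anchors epithelium to mesenchyme, averaged 19.7 ± 3.76 CPM in controls and 34.2 ± 0.316 CPM in treated libraries (SD, n = 3 each). Fbln2, the fibulin-2 gene, spanned 131 to 189 CPM in controls and 239 to 299 CPM in treated libraries. Npnt encodes nephronectin, the ligand of the integrin made of Itga8 and Itgb1, and was at 41.9 ± 4.67 and 70.6 ± 15.2 CPM (SD, n = 3 each). Their log2 changes were 0.79, 0.74 and 0.75, with adjusted p-values of 0.0594, 0.0814 and 0.0895 in edgeR and of 0.000384, 0.000601 and 0.00271 in DESeq2. Smoc1 and Ecm1 were higher too, with log2 changes of 0.69 and 1.06 (adjusted p 0.0906 and 0.188 in edgeR). Smoc2, a matricellular protein gene related to Smoc1, was the one that was lower, at 232 ± 55.7 and 127 ± 29.5 CPM, with a log2 change of -0.87 (adjusted p 0.121 in edgeR and 0.00244 in DESeq2).

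Of each list without a call in edgeR, the 2 genes with the highest mean CPM over both groups were Sparc and Col15a1 (log2 changes 0.16 and 0.21), P4hb and Serpinh1 (-0.06 and 0.14), the actin linkers Flna and Actn4 (-0.04 and -0.05), the basal keratins Krt14 and Krt5 (0.34 and -0.25), and Itgb2 and Itga2b of blood cells (0.56 and -0.07). The adjusted p of each of these 10 genes was 0.726 or more in edgeR.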

How the data were processed

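The authors deposited 1 table of whole-number counts per gene with coordinates and exon length. Per the submitters' processing notes, cutadapt 2.9, HISAT2 2.2.0, featureCounts 2.6.0 and the GRCm39 build were used; counting options are not given in the sources used here. Libraries held 19724383 to 32473558 counts. One BMP-2 column, matching no sample label exactly, was grouped by the first letter of its name. From the counts, 17006 genes kept by filterByExpr were tested together with edgeR 4.0.16 in R 4.3.3 (TMM scaling, robust quasi-likelihood test, no covariates, Benjamini-Hochberg adjusted p threshold 0.05). The test was checked on simulated data with 200 changed genes. It recovered 58.6% of 2-fold and 87.6% of 4-fold changes and made 20 false calls, so a true 2-fold change can be missed. Standard errors are the absolute log2 change over the square root of the F statistic; 95% intervals are for 1 gene at a time. CPM used TMM-scaled library sizes, and TPM the deposited exon lengths. Alternatives were DESeq2 1.42.0, limma-voom (limma 3.58.1), other scalings and filters, a replicate block and each library left out. Full values are given for members with an unadjusted p below 0.05 and the one of each kind with the highest CPM; other members and Bpifa2 were named after their values were seen. The members and lists were chosen with earlier results of these data known.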

Additional observations from a re-analysis of the deposited data

How the results depend on the processing

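None of the 40 genes was called by edgeR under the 3 other scalings, the stricter filter, the fit without robust estimation or when any 1 library was left out, nor by limma-voom. The exceptions were 1 gene called higher without a low-count filter, 2 called lower by DESeq2 and 1 (Nid2, adjusted p 0.0249) called lower with the replicate block. Over all genes the count was 552 without a filter, 672 with DESeq2, 78 with limma-voom, 540 with the replicate block and 42 without a block on the same 4 libraries (added after seeing the data), and 20 to 151 with 1 library left out. Deviations of same-numbered libraries had an r across genes of 0.428 (replicate 1) and 0.137 (replicate 2). All other pairs of a control and a treated library ran from -0.342 to 0.222, so only the replicate 1 pair lay above them. The labels do not say what a number marks. In 16 alternatives 26 members kept their direction, among them all 7 with an unadjusted p below 0.05. On 4 libraries, with and without the block, the log2 change was -0.051 and -0.036 for Lama2, 0.027 and 0.039 for Lama3, -0.072 and -0.20 for Col4a4, 0.0094 and 0.050 for Fn1, and 0.11 and 0.098 for Itga1; for Itgb6 limma-voom gave -0.041. With 1 library left out it ran from -0.099 to 0.085 for Agrn, -0.26 to 0.51 for Col4a4, -0.0096 to 0.045 for Dag1, -0.41 to 0.18 for Fn1, -0.28 to 0.046 for Itga1, -0.12 to 0.35 for Itga7, -0.039 to 0.086 for Itgb1, -0.11 to 0.014 for Itgb3, -0.35 to 0.23 for Itgb6, -0.041 to 0.51 for Lama1, -0.056 to 0.20 for Lama2, -0.16 to 0.069 for Lamb2 and -0.28 to 0.055 for Lamb3. The other basement membrane components had 4 calls without a filter, 6 with DESeq2, 5 with the replicate block and 0 to 2 with 1 library left out (2 without control replicate 3). The hemidesmosome genes and the other integrin chains had 1 call each with the replicate block. The other matrix receptors had 3 without a filter, 3 with DESeq2, 2 with the block, 0 without a block on 4 libraries and 0 to 1 with 1 library left out. The cause of these differences was not tested. Col4a3, with the fewest counts of the 40 genes, had the widest interval.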
